A study of Homo sapiens with 12 samples.

Results

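HCT116, a human colorectal carcinoma line, was the line with the narrowest response to trichostatin A (TSA) in a series of 12 poly(A) RNA libraries from 3 carcinoma lines. The response is described here from the 4 HCT116 libraries of those 12: cells grown under normal condition (Normal), cells given 50 µM GSK126, which blocks EZH2, a methyltransferase of histone H3, cells given 100 µM S2101, which blocks the demethylase LSD1, and cells given 1 µM TSA. The other 8 libraries are the same 4 conditions in MHCC97H, a hepatocellular carcinoma line, and A549, a lung adenocarcinoma line. Per the labels HCT116 was grown in RPMI 1640 and the other lines in DMEM, so an effect of the line and one of its medium cannot be told apart. The sources used here give neither treatment times nor a vehicle control. A gene was counted as a TSA response when its level in the TSA library lay outside the range of the other 3 HCT116 libraries. Levels are counts scaled to a common library size (CPM, reads per 1e6 reads) after TMM scaling of the library sizes, and 15095 of the 25647 genes in all 12 tables were measured, meaning at least 1 CPM in at least 1 of the 4 HCT116 libraries. With 1 library a condition there is no replicate check within the line, and the values of HCT116 are a description.

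TSA blocks the zinc-dependent histone deacetylases, the enzymes that take acetyl groups off histones and off many other proteins. Histone acetylation marks open, active chromatin, so cells given such an inhibitor are known to turn on a set of silent or weakly used genes, among them the cell cycle inhibitor CDKN1A, and to leave the cell cycle. HCT116 is widely used to study this class of compounds because it keeps functional p53 and carries an activated β-catenin, the transcriptional arm of WNT signalling.

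The 4 HCT116 libraries held 14468304 to 16898160 counts, and 3 reads were worth 0.1775 to 0.2073 CPM. Of all genes, 27.84 to 28.98% had no read in the 3 other libraries and 22.65% had none under TSA. Several features of the libraries moved with TSA and their part in the results was not tested: the nuclear RNA MALAT1 took 0.198, 0.573, 0.43 and 0.801% of counts (Normal, GSK126, S2101, TSA), and the ribosomal RNA gene RNA28S5 took 1.26, 1.53, 1.52 and 1.92%. Of the 12 colon markers checked, 3 reached 1 CPM in each of the 3 other libraries and 6 under TSA. CDX2, the intestinal master regulator, stood at 11.1 to 11.9 CPM in the 4 libraries, against 3.5 to 7.79 CPM in MHCC97H and 0.124 to 0.982 CPM in A549. KRT20, a marker of mature colonocytes, was at 0.347 to 1.8 CPM in HCT116 and at 1150 to 2490 CPM in MHCC97H, so the marker set is not particular to the colon line. Summed over the blood cell markers, CPM of the library total was 18.5 to 23.2 in the 3 others and 55.6 under TSA, and over the fibroblast and endothelial markers 30.4 to 44 and 88.3. Of 12 markers in each of these lists 1 blood marker and 2 or 3 fibroblast and endothelial markers reached 1 CPM in the 3 others, and 4 and 6 under TSA. The largest members under TSA were HBA2, at 0.859, 0.484, 0.592 and 27.5 CPM of the library total, and COL1A1, at 25.7, 39.4, 27.6 and 69.9. HBB and COL1A2 had no read in any HCT116 library, and PTPRC, the pan-leukocyte marker, was at most 0.47 CPM.

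The TSA library lay outside the range of the other 3 for most genes, but by a small margin for nearly all of them. It was above the range for 5416 genes (35.9% of those measured) and below it for 5601 (37.1%), 73% in all. The same rule put the Normal library outside for 42.5% of genes, GSK126 for 49% and S2101 for 35%, so lying outside by any margin says little about a gene. With a margin of 2-fold on the log2(CPM + 1) scale, TSA was outside for 1147 genes (7.6%), of which 856 were above (5.67%) and 291 below (1.93%). GSK126 was outside by that margin for 86 genes (0.57%), Normal for 33 (0.219%) and S2101 for 5 (0.0331%). Just inside the 2-fold margin was ATP6AP2, at 54.1, 66.1, 53.4 and 133 CPM, and just outside was HSPB8 at 2.83, 7.37, 3.96 and 15.7 CPM. On the lower side AZIN1, at 251, 262, 290 and 125 CPM, was just inside, and CTDSPL, at 32.8, 24.1, 31.6 and 11.6 CPM, just outside.

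**Figure D1:**
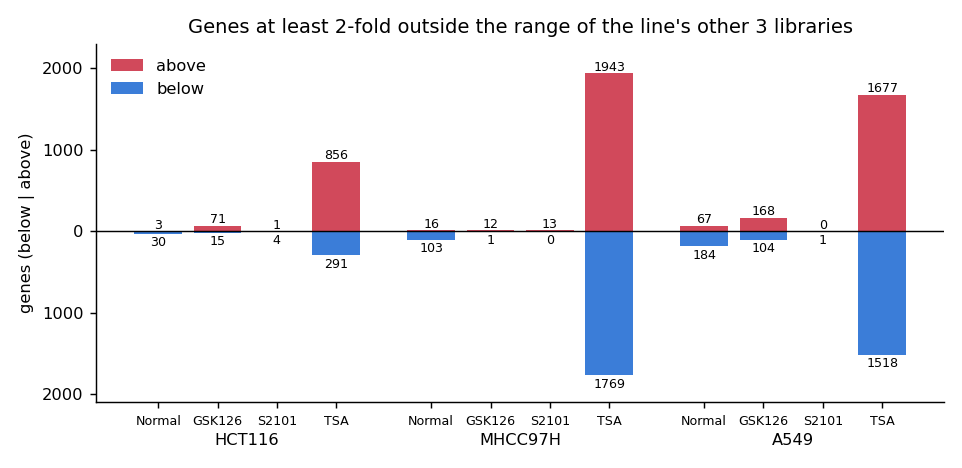
Genes whose level in a library lay at least 2-fold above (red, upward bars) or below (blue, downward bars) the range of the other 3 libraries of the same line, on log2(CPM + 1), for each of the 12 libraries. The HCT116 TSA library has 856 above and 291 below, against 1943 and 1769 for MHCC97H and 1677 and 1518 for A549.

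Levels of the genes outside the range are partly set by the rule, since a weak gene can be measured through its TSA value alone and a 2-fold lower value needs more than 1 CPM in the 3 others. Of the 856 genes above, 326 were under 1 CPM in the 3 others, and among the 14294 genes measured without the TSA library 530 were above (3.71%) and 291 below. In the Normal library the 856 genes above had a median of 1.56 CPM, 43.1% of them were under 1 CPM and 19.2% at 10 CPM or more. The 291 genes below had a median of 50.8 CPM, against 21.6 CPM over all measured genes. At a margin of 4-fold, 184 genes were above and 5 below, and at 8-fold 47 were above and none below. Long non-coding RNAs were above by 2-fold for 84 of 879 measured (9.56%) and below for 7 (0.796%), and protein-coding genes for 732 (5.42%) and 279 (2.07%) of 13499. Genes measured only through their TSA value were not set aside in these classes, so the part of the level filter in that contrast was not tested.

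The reference library matters for the size of these counts, which cannot fall when a reference library is left out. Against the Normal library alone, 1350 genes were 2-fold higher (8.94%) and 825 were 2-fold lower (5.47%), so that higher genes made up 62.1% of the outside genes and not 74.6%. Without the GSK126 library the count below was 490, and without the Normal library it was 488.

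The same rule in the other lines found 3712 genes in MHCC97H (24.6% of 15060) and 3195 in A549 (20.6% of 15543), with 12.9% above and 11.7% below in MHCC97H and 10.8% above and 9.77% below in A549. Over the 13593 genes measured in all 3 lines, the difference between TSA and the mean of the other 3 libraries had an SD of 0.71 log2 units in HCT116, 1.14 in MHCC97H and 1.07 in A549. Differences of at least 4-fold upward numbered 196 in HCT116, 620 in MHCC97H and 489 in A549. Downward they numbered 23, 438 and 440, so the gap between the lines was larger among decreases. Across these genes, which are not independent replicates, the HCT116 differences had a Pearson r of 0.46 with those of MHCC97H and 0.51 with those of A549, and those 2 lines had an r of 0.77 with each other.

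Of the 856 genes above the range in HCT116, 363 were also above in MHCC97H (42.4% of the HCT116 list, 18.7% of the MHCC97H list) and 402 in A549 (47% and 24%). In neither other line were 361 above (42.2%). Of the 291 below, 135 were also below in MHCC97H (46.4% and 7.63%), 144 in A549 (49.5% and 9.49%) and 123 in neither. Seen from the other side, 922 genes were above in both MHCC97H and A549, and 652 of these (70.7%) were not above in HCT116. Of the 878 genes below in both, 767 (87.4%) were not below in HCT116. The A549 S2101 library lay between the A549 TSA library and the other A549 libraries for many TSA-responsive genes (DHRS2: 8.28, 50.9, 209 and 2560 CPM). Without the S2101 library of each line, chosen after the data were seen, the share outside by 2-fold was 8.65% in HCT116, 26.5% in MHCC97H and 22.7% in A549. With it the shares were 7.6%, 24.6% and 20.6%. Leaving a library out can only narrow the range, so the share could not fall in any line.

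Whether TSA acted differently in HCT116 was tested gene by gene with edgeR's quasi-likelihood test over all 12 libraries, with terms for line, for condition and for the HCT116 TSA library. That last coefficient, called the HCT116 term here, is how far the log2 TSA change of HCT116 lies above (positive) or below (negative) the change that the other 2 lines share. It called 2285 of 17793 genes (12.8%) at a Benjamini-Hochberg adjusted p under 0.05, 1331 positive (7.48%) and 954 negative (5.36%). The same term for MHCC97H called 283 genes (1.59%) and for A549 23 (0.129%). Among the 1331 positive calls the median TSA difference was 0.22 in HCT116 and −1.31 in the mean of the other lines, by which 873 of the genes were lower by at least 2-fold. Among the 954 negative calls the medians were −0.25 and 1.07, and 508 were higher by at least 2-fold in the other lines. HCT116 itself moved by less than 2-fold for 1041 of the positive and 844 of the negative calls, and 1238 of the 2285 calls (54.2%) were genes that moved by at least 2-fold in the other lines and by less in HCT116. In 895 calls the other lines also moved by less than 2-fold. The coefficient rests on 1 library, with 5 residual degrees of freedom and a spread shared with the GSK126 and S2101 libraries. With only the 6 Normal and TSA libraries (1 residual degree of freedom) no gene was called and 2454 had an unadjusted p under 0.05. All of the 2283 called genes still tested kept their sign, which is no support, since the main fit that called them holds the same 6 libraries. Leaving out the S2101 libraries left 425 calls and leaving out the GSK126 libraries 1088.

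Genes listed as targets of deacetylase inhibitors were high in the TSA library of HCT116 too, in a list chosen with earlier results of these data known. Of 19 measured members of that list, 12 were above the range by 2-fold and none below (5.67% and 1.93% of all measured genes), with a median difference of 1.68 against −0.02 over all genes. Of the 19, 1 was measured only through its TSA value and was above, and 11 of the other 18 were above. DHRS2, a short-chain dehydrogenase of mitochondria and nucleus, stood at 19.6, 40.2, 7.87 and 1990 CPM in the Normal, GSK126, S2101 and TSA libraries. The counting interval of the TSA value was 1970 to 2010 CPM (95%, exact Poisson, which covers counting error only). It was 102 times the Normal level, and in A549 TSA brought it to 2560 CPM. VGF, a neuropeptide precursor, stood at 51.1, 158, 92 and 2740 CPM, far above its other libraries. CLU, which encodes the extracellular chaperone clusterin, stood at 160, 122, 220 and 2050 CPM. Its difference was 3.65 in HCT116, 1.45 in MHCC97H and 1.96 in A549, and the HCT116 term was called (1.94 ± 0.31 SE, edgeR adjusted p = 0.00721). CDKN1A, the p21 inhibitor of cyclin-dependent kinases, stood at 142, 208, 175 and 471 CPM, 3.32 times the Normal level. All 3 other libraries lay below it, and the HCT116 term was −1.24 ± 0.61, which was not called (edgeR adjusted p = 0.217).

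Some of the list moved little in HCT116, though 18 of 19 lay above the range by some margin (background 35.9%). TXNIP, the thioredoxin-binding protein that curbs glucose uptake, was not among the 19 measured. It had 0.0578, 0, 0.0551 and 0.12 CPM, at most 2 reads, while TSA brought it from 5.36 to 168 CPM in MHCC97H and from 0.479 to 305 CPM in A549. That contrast was not called (edgeR adjusted p = 0.669, SE 4), and HCT116 gave almost no reads. TSPYL2, a nuclear growth suppressor, was at 41.3, 47.4, 39.4 and 53.3 CPM, with a term of −1.9 (edgeR adjusted p = 0.00697). GADD45B, a stress-induced gene, was at 19.2, 20.6, 23.6 and 22.4 CPM, inside the range, with differences of 2.75 and 2.49 in MHCC97H and A549 (term −2.58, edgeR adjusted p = 0.0375, called in 6 of 10 alternative fits).

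Of 18 measured deacetylase and acetyltransferase genes none lay outside by 2-fold, a count near the background of 7.6%. HDAC1 was at 338, 274, 279 and 264 CPM, HDAC2 at 201, 171, 183 and 154, EZH2 at 109, 71.8, 79.4 and 57.9, and KDM1A, which encodes LSD1, at 251, 180, 219 and 188. HDAC3 was at 81, 60.9, 72.3 and 91.8 CPM and moved by 0.37, against 1.79 in MHCC97H and 1.46 in A549 (term −1.28 ± 0.24, edgeR adjusted p = 0.012). HDAC7, a class IIa deacetylase, was at 33.7, 38.2, 35 and 23.7 CPM. It differed by −0.57 here and by −3.36 and −2.97 in MHCC97H and A549 (term 2.74 ± 0.26, edgeR adjusted p = 0.00129).

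The 250 bases upstream of the start of 5 responding genes are shown because CDKN1A and DHRS2, both high under TSA, differ in base composition and the 3 H2B genes share motifs (RefSeq, GRCh38.p14, 5′ to 3′ in the direction of transcription). Capitals mark every match, on either strand, to GGGCGG (the GC box that SP1 family factors bind), to CCAAT (the box bound by NF-Y), to TATAAA (the TATA box) and to ATTTGCAT (the octamer bound by POU factors). Reverse complements were searched too. Over 27305 RefSeq promoters of this length the shares with at least 1 match were 42.3% for GGGCGG, 33% for CCAAT, 11.1% for TATAAA and 1.66% for ATTTGCAT. CDKN1A (chr6:36678464-36678713, plus strand) and DHRS2 (chr14:23629865-23630114, plus strand) come first, then the H2B histone genes HIST1H2BK (chr6:27146859-27147108, minus strand), HIST1H2BC (chr6:26123927-26124176, minus strand) and HIST2H2BE (chr1:149886683-149886932, minus strand).
CDKN1A: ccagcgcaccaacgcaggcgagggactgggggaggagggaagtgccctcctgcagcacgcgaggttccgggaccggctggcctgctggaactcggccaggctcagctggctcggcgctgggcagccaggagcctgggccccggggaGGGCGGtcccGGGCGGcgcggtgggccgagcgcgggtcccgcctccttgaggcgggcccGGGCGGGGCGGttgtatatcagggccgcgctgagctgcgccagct
DHRS2: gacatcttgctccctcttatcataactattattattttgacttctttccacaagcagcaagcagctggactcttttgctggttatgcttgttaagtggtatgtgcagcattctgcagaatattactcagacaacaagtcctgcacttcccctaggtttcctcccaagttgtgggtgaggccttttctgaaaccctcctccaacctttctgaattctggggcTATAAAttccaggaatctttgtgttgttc
HIST1H2BK: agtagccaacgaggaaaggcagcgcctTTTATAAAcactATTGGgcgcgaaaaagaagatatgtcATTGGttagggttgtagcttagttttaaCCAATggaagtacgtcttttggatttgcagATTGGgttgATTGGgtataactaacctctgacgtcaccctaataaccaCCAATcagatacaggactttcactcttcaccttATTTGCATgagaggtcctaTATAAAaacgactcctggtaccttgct
HIST1H2BC: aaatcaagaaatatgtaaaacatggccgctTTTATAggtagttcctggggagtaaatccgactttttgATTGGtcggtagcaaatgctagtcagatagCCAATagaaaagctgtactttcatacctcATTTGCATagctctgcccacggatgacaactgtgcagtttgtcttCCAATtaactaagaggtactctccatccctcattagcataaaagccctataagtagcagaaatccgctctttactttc
HIST2H2BE: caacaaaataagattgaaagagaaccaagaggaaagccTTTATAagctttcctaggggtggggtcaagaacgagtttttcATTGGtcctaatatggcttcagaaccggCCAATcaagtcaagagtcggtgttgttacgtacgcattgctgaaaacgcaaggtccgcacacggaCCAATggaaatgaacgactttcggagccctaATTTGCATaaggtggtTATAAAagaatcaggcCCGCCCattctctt
The CDKN1A window is 76.4% G and C and holds 4 matches to GGGCGG, starting 104, 94, 45 and 40 bases before the start, the last 2 overlapping. It lies inside the RefSeq span of the gene (chr6:36676463-36687332), so the start used for CDKN1A is not the first base of that span. The DHRS2 window is 43.2% G and C and has no CpG, as have 6.39% of all promoters, and no match other than TATAAA 29 bases before the start. The 3 H2B windows hold 6, 3 and 3 matches to CCAAT and 1 match each to ATTTGCAT, 46, 123 and 46 bases before the start, beside matches to TATAAA and, in HIST2H2BE, 1 to GGGCGG. A match is a description of letters and not a binding site. A comparison of promoter features between the responding genes and all genes was void, since 71.8% of the genes above the range and 79.7% of those below it had a RefSeq promoter in the table.

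Among the gene lists used here, clustered histones had the most members above the range by 2-fold, a count that depends on list size. By share, all 5 measured metallothioneins were above, and all 5 keratin-associated proteins, the latter measured only through their TSA value. The deacetylase inhibitor targets had 12 of 19 above. Replication-dependent histone mRNAs normally end in a stem-loop without a poly(A) tail, and these libraries were poly(A)-selected, so the counts are of polyadenylated histone transcripts only. Of 72 clustered histone genes 32 were measured, and 20 of those were above by 2-fold and none below (background 5.67% and 1.93%), with a median difference of 1.82 (1.53 in MHCC97H and 1.98 in A549). Of the 32, 17 were measured only through their TSA value, 10 of them above by 2-fold, and of the remaining 15, 10 were above. HIST1H2BK stood at 8.67, 8.46, 7.16 and 274 CPM, 31.6 times the Normal level. TSA moved it by 4.92 in HCT116, 0.86 in MHCC97H and 2.95 in A549 (term 2.97 ± 0.68, edgeR adjusted p = 0.0251, called in 6 of 10 alternative fits). The linker histone HIST1H1C stood at 3.7, 11.6, 6.72 and 167 CPM, and HIST2H2AA4 at 2.31, 2.86, 2.64 and 55.6. Lower in abundance were HIST1H2BC at 0.809, 0.546, 0.606 and 26.1 CPM, HIST1H2AC at 0.578, 1.36, 0.606 and 15, and HIST2H2BE at 0.867, 1.43, 1.21 and 13.1. In each of these 6 genes TSA lay above all 3 other libraries, which themselves differed up to the 3.7 and 11.6 CPM of HIST1H1C. Histone genes of a cluster are near-identical copies, and the sources used here do not say how reads shared between copies were counted.

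**Figure D2:**
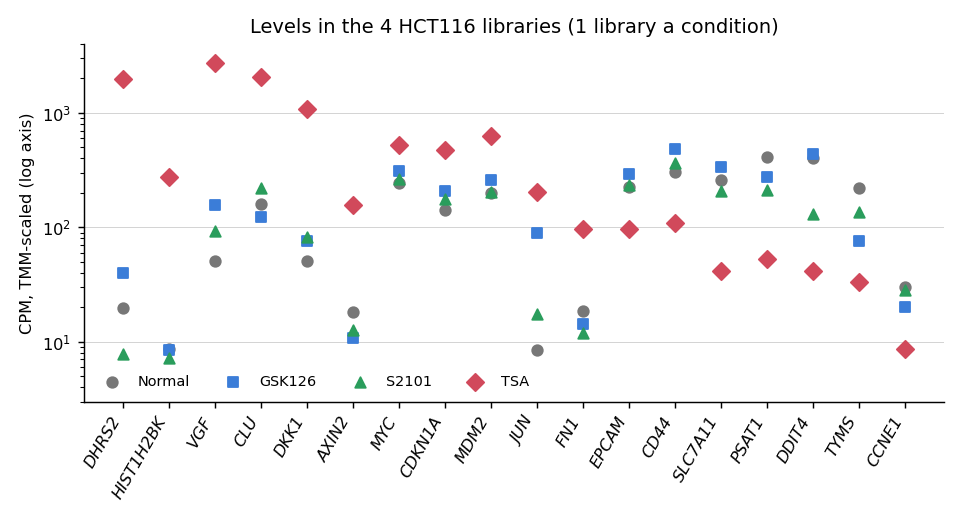
CPM (TMM-scaled, log axis) of 18 genes in the 4 HCT116 libraries, 1 point per library: grey circles Normal, blue squares GSK126, green triangles S2101, red diamonds TSA. DHRS2 (1990 CPM), VGF (2740) and CLU (2050) lie far above the other 3 libraries under TSA, while SLC7A11 (41.9) and CCNE1 (8.58) lie below them.

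The genes furthest above the range covered very different functions. LINC00659, a long non-coding RNA of chromosome 20, stood at 0.982, 0.887, 1.27 and 114 CPM, 116 times the Normal level. In MHCC97H and A549 it reached 1.39 and 0.556 CPM under TSA, and the HCT116 term of 2.77 was not called (edgeR adjusted p = 0.0593). RPL3L, a muscle form of ribosomal protein L3, stood at 0.173, 0.0682, 0.0551 and 42.4 CPM. NCAM1, the neural cell adhesion molecule, stood at 1.39, 1.36, 0.385 and 72.9 CPM. PEG10, a retrotransposon-derived imprinted gene, stood at 38.9, 20.7, 23.7 and 808 CPM, and in MHCC97H it went from 10.6 to 2140. SYT11, a synaptotagmin, stood at 0.347, 0.614, 0.44 and 38.9 CPM, ZCCHC12 at 2.54, 1.09, 1.43 and 96.4, DNAH3, an axonemal dynein, at 0.462, 0.409, 0.0551 and 27.5, and LOC101929181 at 1.62, 0.819, 1.32 and 49.6. For all of these the TSA value lay at least 19.3-fold from the nearest other library on the CPM + 1 scale, and none had a called HCT116 term.

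Some direct targets of WNT and β-catenin signalling, AXIN2 and DKK1 among them, were higher in HCT116 than the other lines give. Of 17 measured members, 7 were above the range by 2-fold and 1 below (background 5.67% and 1.93%), and 5 had a called positive term, as had 1256 of the 15095 genes measured. Of the 17, 1 was measured only through its TSA value and was above, and 6 of the other 16 were above. The median difference was 0.58 in HCT116, 0.4 in MHCC97H and 0.52 in A549, and EPHB3 and TNFRSF19 differed more in A549 (3.27 and 2.24) than in HCT116 (1.74 and 1.52). AXIN2, a negative feedback scaffold of the pathway, stood at 18.1, 10.8, 12.6 and 157 CPM, with a counting interval of 151 to 163 under TSA. It differed by 3.45 in HCT116, −0.83 in MHCC97H and 0.42 in A549 (term 3.74 ± 0.48, edgeR adjusted p = 0.00367, called in 9 of 10 alternative fits). DKK1, a secreted inhibitor of the WNT receptors, stood at 50.7, 76.4, 82.8 and 1090 CPM, 21.5 times the Normal level (term 2.9 ± 0.71, edgeR adjusted p = 0.0317, 7 of 10 fits). SP5, a transcription factor turned on by β-catenin, stood at 0.867, 0.614, 0.716 and 10.9 CPM. The ubiquitin ligase RNF43, which removes WNT receptors, stood at 67.1, 69.9, 56.3 and 145, the receptor kinase EPHB3 at 7.4, 5.87, 4.74 and 22.1, TNFRSF19 at 1.62, 0.682, 0.606 and 4.5, and BAMBI, a decoy receptor of TGF-β ligands, at 6.99, 7.37, 5.51 and 20. CD44, a cell surface receptor for hyaluronan, was the member below: 305, 483, 367 and 109 CPM, and it was lower in the other lines too (−2.2 and −3.6).

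MYC and CCND1, both growth drivers and WNT targets, were not lower under TSA in HCT116, unlike in the other lines. MYC stood at 243, 311, 265 and 524 CPM, above all 3 others, with counting intervals of 302 to 320 CPM for the nearest library and 513 to 535 under TSA. In MHCC97H it went from 166 to 50.7 CPM and in A549 from 192 to 22.1 (term 3.06 ± 0.48, edgeR adjusted p = 0.00697, 9 of 10 fits). CCND1, cyclin D1, stood at 657, 878, 729 and 786 CPM, inside the range, while it differed by −2.1 in MHCC97H and −3.38 in A549 (term 2.76 ± 0.5, edgeR adjusted p = 0.0114). Of 25 measured MYC and ribosome biogenesis genes 1 was above by 2-fold and none below, near the background of 5.67% and 1.93%, with a median of −0.16. That gene was ODC1, the first enzyme of polyamine synthesis, at 611, 478, 377 and 1880 CPM. The 80 measured cytosolic ribosomal protein genes had a median of −0.02 in HCT116, −0.5 in MHCC97H and −0.32 in A549, with 1 above by 2-fold, RPL3L.

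Of 28 measured p53 targets 19 were above the range by any margin and 4 below (background 35.9% and 37.1%). By 2-fold 6 were above and none below (background 5.67% and 1.93%), with a median of 0.81. Against the Normal library alone 13 were above and 1 below (background 8.94% and 5.47%). In MHCC97H 5 of 27 were above by 2-fold and 1 below (background 12.9% and 11.7%), with a median of 0.51. In A549 3 of 29 were above and 3 below (background 10.8% and 9.77%), with a median of 0.29. MDM2, the ubiquitin ligase that degrades p53, stood at 200, 257, 204 and 626 CPM and differed by 1.51, −0.55 and −0.35 in HCT116, MHCC97H and A549 (term 1.98 ± 0.24, edgeR adjusted p = 0.00327, 9 of 10 fits). AEN, an apoptosis-enhancing nuclease, stood at 44.1, 40.7, 45.4 and 116 CPM (term 2.18 ± 0.31, edgeR adjusted p = 0.00522). PHLDA3, a repressor of AKT, stood at 14.6, 17.6, 17.8 and 35.1, short of the 2-fold margin, and was lower in the other lines (−1.25 and −2.35, term 3.28 ± 0.36, edgeR adjusted p = 0.0023). TP53I3, at 12.3, 16, 6.33 and 21.4 CPM, and DDB2, a DNA damage sensor, at 42.2, 24.1, 31.7 and 82.9, also had called positive terms (2.78 and 1.01). The kinase PLK2, at 54.7, 87.4, 86.8 and 190 CPM, the sestrin SESN1, at 13.2, 9.89, 13.4 and 28.6, TRIM22, at 0.173, 0, 0.11 and 1.5, and CDKN1A, given above, were the remaining members above by 2-fold. TRIM22 was measured only through its TSA value. Members with a called negative term were 2, a call made for 936 of the 15095 genes measured. TNFRSF10B, the death receptor DR5, stood at 193, 295, 197 and 167 CPM and was higher in the other lines (1.39 and 1.2, term −1.73, edgeR adjusted p = 0.0118). FDXR, a mitochondrial reductase, was at 68.8, 43.5, 55.7 and 104 (term −1.04, edgeR adjusted p = 0.027, 6 of 10 fits).

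**Figure D3:**
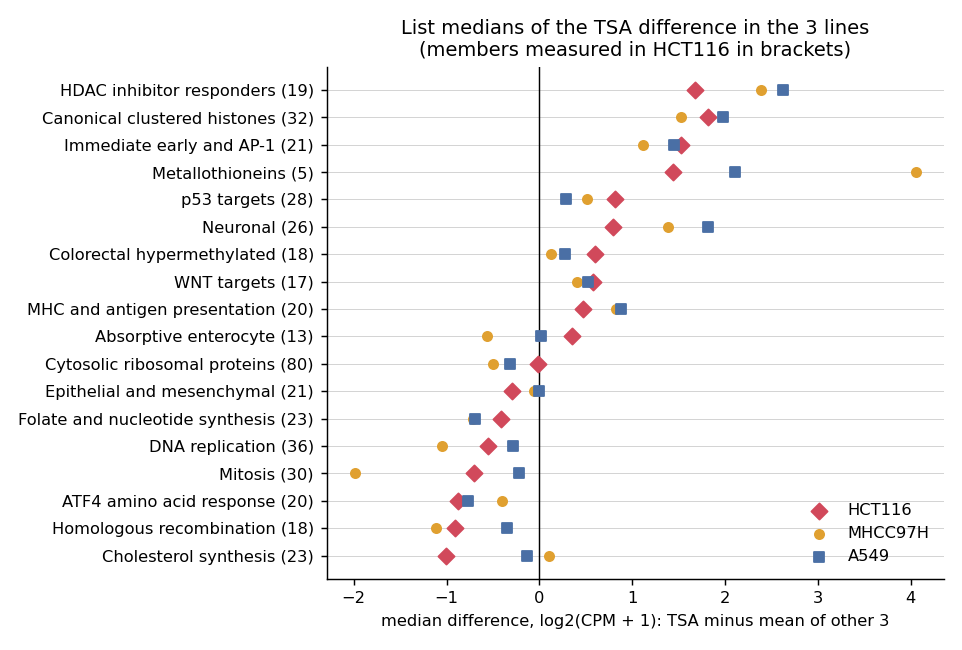
Median over the measured members of 18 gene lists of the difference between the TSA library and the mean of the other 3 libraries of the line, on log2(CPM + 1), for HCT116 (red diamonds), MHCC97H (yellow circles) and A549 (blue squares). The HCT116 medians run from 1.82 (clustered histones) to −1.01 (cholesterol synthesis), and mitosis genes sit at −0.7 in HCT116, −1.99 in MHCC97H and −0.22 in A549.

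Genes of cell division were lower under TSA than in untreated HCT116 cells, but GSK126 and S2101 lowered many of them too. Of 36 DNA replication genes 2 were below the range by 2-fold and none above (background 1.93% and 5.67%). Of 30 mitosis genes none lay outside by 2-fold, and of 18 homologous recombination genes 1 was below. Against the Normal library alone, 23, 19 and 14 were 2-fold lower and none higher (background 5.47% lower). Any-margin counts below the range were 15 of 36, 23 of 30 and 16 of 18 (background 37.1%), the first of them near the background. MKI67, the proliferation antigen, stood at 1160, 540, 861 and 654 CPM, inside the range, and CENPF, a kinetochore protein, at 534, 326, 441 and 258. For mitosis the counts below by 2-fold were 26 of 30 in MHCC97H and none in A549 (background 11.7% and 9.77%). Medians were −1.99 and −0.22 against −0.7 in HCT116, and no mitosis gene had a called HCT116 term. The A549 values depend on the reference too: MKI67 stood there at 1000, 208, 476 and 395 CPM and CENPF at 655, 185, 308 and 298. Both were lower under TSA than in A549 Normal and lower still with GSK126. A lower share of dividing cells and less RNA of a gene per cell cannot be told apart in bulk RNA.

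Thymidylate synthase and cyclin E led the replication list. TYMS, which makes thymidylate, stood at 222, 75.4, 136 and 33.1 CPM, 6.69 times lower than Normal under TSA, and was lower in the other lines as well. CCNE1, cyclin E1, stood at 30.3, 20.2, 28.6 and 8.58 CPM and separated the lines, with differences of 0.7 and 0.41 in MHCC97H and A549 (term −2.17 ± 0.36, edgeR adjusted p = 0.00886). TK1, a thymidine kinase of the salvage route, was the replication gene above the range, at 304, 119, 173 and 488 CPM. BARD1, the partner of BRCA1, stood at 33.5, 19.7, 25.7 and 8.76 CPM, BRCA1 at 98.7, 41.7, 60 and 23.8, FANCI at 183, 90.7, 135 and 51.1, and the checkpoint kinase CHEK1 at 79.3, 49.8, 52 and 30.9. All 4 repair genes were lowest under TSA, BARD1 alone by 2-fold, a margin it missed with library totals as the only scaling (−0.96).

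Among the gene lists, targets of ATF4 had the most members below the range by 2-fold. Of 20 measured targets of ATF4, the transcription factor of the amino acid response, 6 were below the range by 2-fold and none above (background 1.93% and 5.67%). Against Normal alone 13 were 2-fold lower (background 5.47%). SLC7A11, the cystine importer, stood at 258, 339, 207 and 41.9 CPM, the furthest below the range of the genes named here (−2.28), and differed by −2.62, −3.08 and −3.74 in HCT116, MHCC97H and A549. PSAT1, an enzyme of serine synthesis, stood at 410, 273, 213 and 52.9 CPM, 7.76 times lower than Normal, while in MHCC97H it differed by 0.25. Its HCT116 term of −2.01 was not called (edgeR adjusted p = 0.0729). DDIT4, an inhibitor of mTORC1, stood at 404, 440, 130 and 41.2, the pseudokinase TRIB3 at 121, 148, 56.9 and 19.4, and SLC7A5, the leucine carrier, at 1350, 1040, 867 and 369. DDIT3, the stress factor CHOP, was at 61.6, 46.4, 22.9 and 22 CPM, near the S2101 value, and higher under TSA in the other lines (term −3.29, edgeR adjusted p = 0.0491, 5 of 10 fits). ASNS, asparagine synthetase, was at 349, 280, 291 and 257 CPM.

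One-carbon enzymes were among the lower genes too. Of 23 measured folate and nucleotide synthesis genes 4 were below by 2-fold and none above (background 1.93% and 5.67%). MTHFD2, the mitochondrial methylene-tetrahydrofolate dehydrogenase, stood at 558, 465, 396 and 127 CPM, its partner MTHFD1L at 157, 132, 129 and 42.6, and GART, of purine synthesis, at 283, 248, 261 and 111. In each the TSA library was well below the 3 others, which lay close together. None of the 3 had a called HCT116 term. TYMS, counted above among replication genes, was the remaining one, and MTHFD2 was also 1 of the 6 ATF4 targets below by 2-fold.

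Other genes far below the range encode transporters, a keratin and a histone variant. CYBRD1, a ferric reductase of the duodenum, stood at 16.9, 14.5, 21.2 and 2.7 CPM, and ANO1, a chloride channel, at 49.5, 92.7, 94.8 and 11.3. CPNE7 stood at 113, 118, 128 and 27.2 CPM, H2AFY2, the macroH2A2 histone variant, at 66.4, 45.1, 53.9 and 10.9, and ZAK, a stress-activated kinase, at 89.3, 80.7, 105 and 22. KRT7, a keratin of simple epithelia, stood at 29.6, 126, 75.3 and 7.14 CPM, and ABCC3, a bile salt exporter, at 17.7, 88.3, 122 and 4.02. For these last 2 genes the other inhibitors were above Normal and TSA was below it.

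Sterol genes show how the choice of reference decides a list. GSK126 and S2101 libraries held higher levels of these genes than Normal, so the median of 23 cholesterol synthesis genes was −1.01 against the mean of the 3 libraries and −0.25 against Normal alone. HMGCS1, the synthase ahead of HMG-CoA reductase, stood at 67.7, 716, 243 and 79.1 CPM and SQLE, squalene epoxidase, at 72.9, 267, 147 and 46.5. For HMGCS1 the TSA library was next to Normal. The HCT116 term was negative and called for 7 of the list, as it was for 936 of the 15095 genes measured. INSIG1, which retains the sterol sensor in the endoplasmic reticulum, stood at 39.4, 319, 108 and 76.1 CPM, and under TSA it reached 1820 CPM in MHCC97H and 1250 in A549 from 112 and 60.6 (term −3.42 ± 0.44, edgeR adjusted p = 0.00382). IDI1, isopentenyl diphosphate isomerase, was at 41.7, 236, 102 and 52.2 CPM (term −2.67, edgeR adjusted p = 0.0102), and FDFT1, squalene synthase, was at 106, 400, 254 and 78.9 (term −1.98, edgeR adjusted p = 0.00279).

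Several genes of epithelial identity were lower under TSA in HCT116 and higher in the other lines. Of 21 measured genes of the epithelial and mesenchymal list 4 were above by 2-fold and 3 below (background 5.67% and 1.93%). Of the 21, 3 were measured only through their TSA value, 2 of them above, and 2 of the other 18 were above. EPCAM, the epithelial adhesion molecule, stood at 225, 292, 233 and 97.4 CPM, ESRP1, an epithelial splicing factor, at 195, 203, 158 and 71.1, and the tight junction gene CLDN7 at 151, 226, 129 and 65.1. In MHCC97H and A549 these 3 genes were low without TSA and higher with it, EPCAM by 0.36 and 1.24, ESRP1 by 0.96 and 1.41 and CLDN7 by 1.44 and 1.29. In MHCC97H EPCAM went only from 0.209 CPM in Normal to 0.859 under TSA and ESRP1 from 0 to 0.991, both near the floor. For EPCAM, ESRP1 and CLDN7 the terms were −2.7 ± 0.43, −5.01 ± 0.61 and −3.17 ± 0.45 (edgeR adjusted p = 0.00716, 0.00313 and 0.00516, each called in 9 of 10 fits). MAL2, a protein of apical sorting, stood at 220, 266, 215 and 102 CPM, and in MHCC97H it went from 0.0697 to 8 (term −5.76, edgeR adjusted p = 0.00428). FN1, fibronectin, stood at 18.5, 14.3, 11.9 and 96.3 CPM, while in MHCC97H it was at 12300 CPM in Normal and 6970 under TSA (term 3.06 ± 0.44, edgeR adjusted p = 0.0054). SNAI2, a repressor of E-cadherin, stood at 0.173, 0.409, 0.385 and 5.82 CPM (term 2.7, edgeR adjusted p = 0.0197, 6 of 9 fits), and N-cadherin, CDH2, at 0.0578, 0, 0 and 1.08. Not all epithelial genes were lower: KRT19 stood at 588, 1070, 847 and 2330 CPM, and KRT8 at 1510, 1790, 2030 and 1720, inside the range. E-cadherin itself, CDH1, was inside the range too, at 96.7, 167, 73.7 and 91.3 CPM of the library total. KRT18 was lowest under TSA, at 571, 823, 803 and 376 CPM.

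TGFBR2, JUN and FOSL2 were above the range in HCT116 and not in the other lines. TGFBR2, the type II receptor for TGF-β, stood at 36, 48.3, 46.4 and 135 CPM, with differences of −0.94 and −0.84 in MHCC97H and A549 (term 2.52 ± 0.24, edgeR adjusted p = 0.00129, 9 of 10 fits). Of 21 measured immediate early and AP-1 genes 7 were above by 2-fold and none below (background 5.67% and 1.93%), with a median of 1.52, against 1.12 in MHCC97H and 1.45 in A549. Of the 21, 1 was measured only through its TSA value and was above, and 6 of the other 20 were above. JUN stood at 8.49, 90, 17.3 and 202 CPM, 23.8 times the Normal level and 2.23-fold above GSK126 on the CPM + 1 scale (term 3.08 ± 0.87, edgeR adjusted p = 0.0495, 7 of 10 fits). FOSL2 stood at 30.4, 71.2, 27.1 and 114 (term 2.77, edgeR adjusted p = 0.00732), while FOSL1, at 61.4, 155, 153 and 53.3, was near Normal here and far lower in the other lines (−4.4 and −3.19). EGR1 stood at 94.1, 107, 81.3 and 322 CPM, EGR3 at 0.809, 3.21, 0.551 and 9.66, IER2 at 179, 198, 153 and 519, and ARC, an immediate early gene of neurons, at 8.49, 9.21, 7.93 and 85.7. CTGF, a matricellular growth factor, stood at 1.91, 6.55, 6 and 68.6 CPM.

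**Figure D4:**
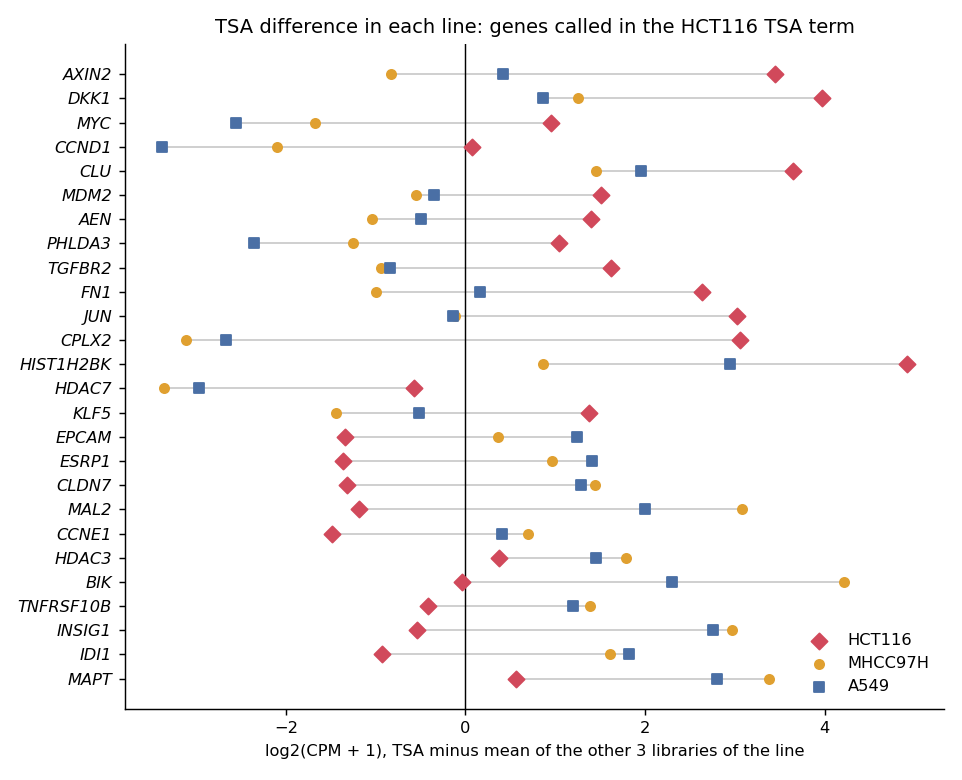
Difference between the TSA library and the mean of the other 3 libraries of each line, on log2(CPM + 1), for 26 genes with a called HCT116 term, chosen with their values known. HCT116 (red diamonds) lies to the right of both other lines from AXIN2 to KLF5 and to the left of both from EPCAM to MAPT; MYC reads 0.95, −1.67 and −2.55 in HCT116, MHCC97H (yellow circles) and A549 (blue squares).

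Of 25 measured regulators of apoptosis, 6 were above and 9 below the range by any margin (background 35.9% and 37.1%), and 3 lay outside by 2-fold. TNFRSF10C, a decoy receptor for TRAIL, was above by 2-fold at 2.2, 2.73, 2.42 and 8.76 CPM, and BID (31.9, 23.9, 32 and 7.74) and BCL2L2 (50.6, 63.6, 52.8 and 24.3) were below (background 5.67% and 1.93%). BIK, a pro-apoptotic BH3-only protein, was at 10.2, 13, 11.3 and 11.1 CPM, inside the range, while TSA brought it from 2.58 to 77 CPM in MHCC97H (term −4.13 ± 0.61, edgeR adjusted p = 0.00553). TNFRSF10A, the death receptor DR4, was at 29.6, 44.6, 40.9 and 44.3 CPM and lower in the other lines (−2.05 and −1.45, term 2.04, edgeR adjusted p = 0.00684). BCL2L1, which encodes BCL-XL, was at 186, 209, 308 and 234 (term 1.34, edgeR adjusted p = 0.031, 6 of 10 fits).

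Metallothioneins, small metal-binding proteins, were above the range by 2-fold for all 5 measured members of 11 (background 5.67%; MT1G passed the level filter only through its TSA value). MT2A stood at 279, 335, 389 and 1330 CPM, MT1X at 20.1, 24.1, 15.4 and 155, and MT1E at 219, 195, 198 and 462. Differences were smaller than in the other lines for MT1X (2.92, 6.21 and 3.52) and MT2A (2, 5.24 and 2.09), but neither term was called. Members of this family are similar in sequence, and the counting of shared reads is not stated.

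Of 26 measured neuronal genes, 10 were above by 2-fold and 1 below (background 5.67% and 1.93%), with a median of 0.79 against 1.39 in MHCC97H and 1.82 in A549. Of the 26, 8 were measured only through their TSA value, 6 of them above by 2-fold, and 4 of the remaining 18 were above. CPLX2, a complexin of synaptic vesicle release, stood at 0.578, 0.614, 0.716 and 12.6 CPM (9 to 13 reads in the 3 others, 210 under TSA), while it went from 84.8 to 6.48 CPM in MHCC97H and from 902 to 109 in A549. It had the smallest adjusted p of the HCT116 term (7.26 ± 0.45, edgeR adjusted p = 0.000381). MAP2, a dendritic microtubule protein, stood at 13.6, 20.3, 19.5 and 95 CPM. MAPT, which encodes tau, at 59.7, 65.2, 72.8 and 97.3, and SCG2, secretogranin II, at 15.9, 30.4, 19.7 and 38.1, moved less than in the other lines (terms −2.78 and −4.11). STMN3, of the stathmin family, was lower at 138, 127, 166 and 47.3 CPM and higher in the others (term −3.7, edgeR adjusted p = 0.0281, 7 of 10 fits).

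Some genes nearly unread in the 3 other HCT116 libraries reached 1 CPM or more under TSA. A gene counted as switched on with under 0.1 CPM of the library total in the 3 other libraries and at least 1 CPM under TSA: 80 genes met this of 7393 silent in the 3 (1.08%), 69 of them protein coding. The same rule found none for the Normal, GSK126 or S2101 library, and no gene was switched off under TSA. For 35 of the 80 the 3 other libraries held no read. The levels were low, with a median of 1.54 CPM, and 5 genes were at 5 CPM or more. RFPL4A, a RING-domain gene of oocytes, had 1, 1, 0 and 315 reads. LILRA3, a soluble leukocyte receptor, had 0, 0, 1 and 108, LOC100505918 had 0, 0, 1 and 88, and the orphan receptor GPR50 had 0, 1, 0 and 80. STMN2, a stathmin of growing neurites, had 0, 0, 0 and 77 reads, at least 82.2-fold higher against a floor of 3 reads over the 3 libraries together. The phospholipid flippase ATP8A2 had 1, 0, 0 and 71, and the hair keratins KRT31 and KRT37 had 1, 0, 1 and 65, and 1, 0, 0 and 59. In each of these 8 genes at most 2 reads lay in the 3 other libraries together. Hair structural genes also appeared among the keratin-associated proteins, of which 5 of 94 were measured and all 5 passed the filter through their TSA value. KRTAP3-1 stood at 0.0578, 0.136, 0.0551 and 10.4 CPM.

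The same rule was applied to the other lines. MHCC97H had 240 (3.06% of its silent genes) and A549 72 (1.01%). Of the HCT116 genes 17 were also switched on in MHCC97H (21.2% of the HCT116 list, 7.1% of the MHCC97H list), 5 in A549 (6.2% and 6.9%), and 59 in HCT116 alone. The rule asks for silence, and only 45 of the 80 were silent in the 3 other libraries of MHCC97H, 29 in those of A549 and 26 in neither line. Of the 59, 21 lay above the range by 2-fold in at least 1 other line, as ATP8A2 did in A549, and of all 80, 39 did. Without the S2101 library of each line the counts were 104, 288 and 199.

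Immune and lineage genes are given last. Of 20 measured antigen presentation genes 5 were above by 2-fold and 1 below (background 5.67% and 1.93%): HLA-DRA stood at 1.04, 0.682, 0.771 and 8.4 CPM, HLA-DRB1 at 1.73, 0.819, 1.38 and 9.48, and TAPBP, which loads class I molecules, at 89.8, 159, 100 and 33.4. Of 18 measured interferon-stimulated genes 4 were above and none below, among them IRF7 at 7.74, 8.25, 5.4 and 25.1 CPM and IFIT1 at 5.6, 1.91, 4.35 and 16.7. Only through their TSA value were 3 of the antigen presentation genes measured, 1 of them above, and 1 interferon-stimulated gene, also above. Of 18 measured genes often silenced by methylation in colorectal cancer 6 were above and none below, among them NDRG4 at 13, 10.6, 8.2 and 40.8 CPM, TIMP3 at 2.54, 2.73, 1.93 and 8.34, and THBS1 at 13.5, 19, 25.5 and 62.2. Of these 18, 4 were measured only through their TSA value, 2 of them above, and 4 of the other 14 were above. Absorptive enterocyte genes had no member of 13 outside by 2-fold. KLF5, a transcription factor of crypt cells, had its largest difference from the mean of the other libraries (1.38), at 42.1, 72.4, 44.3 and 135 CPM. It was lower in the other lines (−1.44 and −0.52, term 2.36 ± 0.4, edgeR adjusted p = 0.00903). The lysosomal sialidase NEU1 stood at 17.6, 41.5, 18.9 and 191 CPM, and was higher by more than 3 log2 units in both other lines (3.14 and 3.36). HBA2, an α-globin, stood at 0.809, 0.477, 0.551 and 24.6 CPM, and was higher under TSA in all 3 lines. Its neighbour HBA1 is a near-identical copy, so the split between them is uncertain.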

How the data were processed

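Libraries were poly(A)-selected, per the labels' protocols. Per the file headers, each deposited file lists a raw read count for every gene beside an RPKM value; the RPKM values deposited by the authors were not used. The build is GRCh38 or hg38, per the submitters' processing notes, and the sources used here give no aligner, counter or strand handling. Entries naming no gene (11 in all) were left out. Coordinates come from RefSeq (97.3% of symbols matched). The main test was edgeR 4.0.16 (R 4.3.3, quasi-likelihood, TMM, filterByExpr, 5 residual degrees of freedom), and it was tested on simulated data. The range rule used log2(CPM + 1), without a test, since a condition has 1 library in a line. P-values measure a spread between libraries that are not repeat cultures. Members, lists and thresholds were chosen with earlier results of these data known. Genes named are the 10 furthest on either side of the range (at least 10 CPM), 8 switched on, 8 with the most positive and 8 with the most negative called HCT116 term, up to 4 of each list, and fixed controls; the others (among them CCND1, HDAC7, EPCAM, ESRP1, CLDN7, BIK, TGFBR2, CLU, INSIG1, JUN and PHLDA3) were chosen after their values were seen. Alternatives were RLE factors, library totals, other pseudocounts, filters and margins, each reference library left out, thinning to 14468304 counts, DESeq2 1.42.0, and fits without a line or condition. Results for some genes of the lists are not reported here.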

Additional observations from a re-analysis of the deposited data

Results flagged for a closer look

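The HCT116 term, the test of a difference between lines, called 1331 genes higher and 954 lower in HCT116 than the other lines give. Values below are its coefficients in log2 units, and edgeR's adjusted p was under 0.05 for each gene named. In up to 10 alternative fits most calls held in more than 5; the exceptions were MAP1LC3A (1 fit of 10), ACTA2 (2 of 9), HLA-DPB1 and NUDT11 (3 of 9), MUC1 and TNFRSF10C (4 of 9), CDKN2A (4 of 10), and MAGEB2, HMGCS1, BAMBI and DDIT3 (5 of 10). Several large coefficients rest on genes nearly unread in HCT116, so that they are no measure of a fold: STK32B (10), EBF1 (7.3), NNT (6.47) and NUDT11 (6.4) had no read in the 3 other HCT116 libraries, and KYNU (7.24), AKR1B15 (7.94), CDH2 (5.98) and SPOCK1 (7.17) had few. SPOCK1, a proteoglycan, stood at 0.0578, 0.136, 0 and 6.84 CPM. BHMT (−8.64), MAP1LC3A (−6.01), LOC728392 (−6.05), KIRREL2 (−6.03) and PPM1E (−5.71) stayed near or under 1 CPM in HCT116 under TSA and were higher in at least 1 other line. UCA1 (−5.73) stood at 58.4, 82.7, 75.7 and 72.7 CPM in HCT116 and was nearly unread in the other lines without TSA.

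Coefficients of WNT, growth and p53 genes were 3.74 for AXIN2, 2.9 for DKK1, 1.03 for BAMBI, 3.06 for MYC, 2.76 for CCND1, −2.17 for CCNE1, 2.12 for CDKN2A, 1.98 for MDM2, 2.18 for AEN, 3.28 for PHLDA3, 2.78 for TP53I3, 1.01 for DDB2 and −1.04 for FDXR. Chromatin and inhibitor-responsive genes gave 2.97 for HIST1H2BK, 2.31 for HIST1H2AC, 1.94 for CLU, 2.52 for TGFBR2, 2.74 for HDAC7, −1.28 for HDAC3, 1.51 for CREBBP, −2.58 for GADD45B and −1.9 for TSPYL2. CDKN2A is close to 0 CPM in every A549 library, so its coefficient rests on MHCC97H.

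Epithelial, mesenchymal and lineage genes gave −2.7 for EPCAM, −5.01 for ESRP1, −1.43 for ESRP2, −3.17 for CLDN7, −5.76 for MAL2, 3.06 for FN1, 2.7 for SNAI2, 2.36 for KLF5, 2.63 for MUC1, 2.61 for ACTA2, −3.06 for LAMP3, 2.72 for HOXA4 and 3.54 for PCDHGA1. AP-1 genes gave 3.08 for JUN, 2.77 for FOSL2 and 2.79 for FOSL1. Sterol genes gave −3.42 for INSIG1, −2.67 for IDI1, −1.98 for FDFT1, −2.22 for HMGCS1 and −1.38 for SQLE. Apoptosis and stress genes gave −4.13 for BIK, 1.34 for BCL2L1, 2.04 for TNFRSF10A, −1.73 for TNFRSF10B, 2.2 for TNFRSF10C and −3.29 for DDIT3.

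Neuronal genes gave 7.26 for CPLX2, −2.78 for MAPT, −4.11 for SCG2 and −3.7 for STMN3. MT1E, with at most 0.131 CPM in the A549 libraries, gave −5.48, and 0.38 without MHCC97H (edgeR adjusted p = 0.908). The rest were −4.61 for HLA-DPB1, −2.53 for IFI6, −3.77 for MAGEB2, a cancer-testis antigen, and −3.59 for OR51B5, an olfactory receptor of the β-globin region that stood at 76.6, 67.1, 61.8 and 31.2 CPM.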

How the results depend on the processing

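Counts that moved by over 1.5 times are given first; the cause was not tested, except that some settings by construction admit fewer genes or libraries. Genes above and below by 2-fold (856 and 291) were 340 and 161 with a pseudocount of 5, 1902 and 1312 at a 1.5-fold margin, 184 and 5 at a 4-fold margin, and 1350 and 825 against Normal alone. Those above were 356 with a mean of at least 5 CPM, and those below 490 without the GSK126 library and 488 without the Normal library. Genes above by any margin (5416) were 8472 with no filter and 3317 with a mean of at least 5 CPM. Switched-on genes (80) were 189 under 0.2 CPM, 28 at 2 CPM or more under TSA, and 144 against Normal alone. Calls of the HCT116 term (1331 higher, 954 lower) were 0 and 0 with the 6 Normal and TSA libraries (2454 at an unadjusted p under 0.05, smallest adjusted p 0.177), 754 and 334 without the GSK126 libraries, 292 and 133 without the S2101 libraries, and 2054 and 1849 without A549. DESeq2 called 1474 lower. Without MHCC97H the terms of MT1E (0.38) and CDKN2A (−3.93) changed sign. The remaining counts stayed within 1.5 times. For named genes, 1296 of 1342 gaps and 542 of 726 term calls held. List medians that moved against Normal alone were −1.19 for DNA replication, −1.48 for ATF4 targets, −0.25 for cholesterol synthesis, 0.14 for epithelial and mesenchymal genes and 0.57 for muscle genes. No paired analysis was possible because each condition of a line has 1 library and the labels give no replicate numbers.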
